A study of Homo sapiens with 48 samples.

Results

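The 43 genes described here encode the proteasome. They are all genes in the table of 19102 genes whose symbol is PSMA, PSMB, PSMC or PSMD followed by digits alone, together with PSME1 to PSME4. The proteasome degrades proteins that carry ubiquitin chains. Its core particle is a barrel of outer alpha rings and inner beta rings that hold the catalytic sites, and a regulatory particle with a base of ATPases and a lid of non-ATPase subunits recognises, unfolds and feeds in the substrate. In cells exposed to interferon the catalytic subunits PSMB8, PSMB9 and PSMB10 replace PSMB5, PSMB6 and PSMB7, which gives the immunoproteasome, and the PA28 ring of PSME1 and PSME2 can cap the core. The transcription factor NFE2L1 is known to raise proteasome genes when proteasome activity is low.

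The cells were A382, a human line grown from a glioblastoma, and their polyadenylated RNA was sequenced. Guide RNAs delivered by lentivirus targeted BRD8, EP400, TIP60 (gene KAT5), ACTL6A, MRGBP, ING3, TRRAP, DMAP1, GAS41 (gene YEATS4), MEAF6, VPS72, MORF4L1, MORF4L2, RUVBL1, RUVBL2 or H2AZ (gene H2AFZ), and cells were collected at day 9. All but the histone variant H2AZ are known as subunits of, or partners in, the EP400/TIP60 chromatin complex. BRD8 and H2AZ had 4 libraries each (2 guides, 2 replicates) and the other targets 2 libraries, 1 per guide. Guides that target no gene (sgNeg1 to sgNeg4, 2 libraries each, also at day 9) were the controls. A separate experiment held 2 libraries of cells with a doxycycline-inducible p53 vector (A382_P53) and 2 of cells with a control vector (A382_PCW), both after 2 days of doxycycline. Whether replicates were grown as separate cultures is not in the labels. The p-values rest on the differences among libraries, part or all of which can be technical. In bulk RNA, fewer cells of a type and less RNA per cell cannot be told apart.

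The deposited table gives FPKM (fragments scaled to transcript length and library depth) in 5 sections that were taken to be scaled separately: sgBRD8 with sgNeg1, 10 knockouts with sgNeg2, 4 with sgNeg3, sgH2AZ with sgNeg4, and the doxycycline libraries. Each knockout was therefore set against the sgNeg pair that shares its section, with limma on log2(FPKM + 1), and a gene was called higher or lower at an adjusted p under 0.05 over all genes tested. The spacing of the low values puts 1 FPKM at 4.2 to 21.4 fragments per kilobase, least in the sgNeg4 section (4.2 to 7.3). The targeted transcript stood at 18.6% to 74.7% of its controls for 13 of the 16 targets. It was at 82.3% for TRRAP, 92.8% for MORF4L2 and 103% for MORF4L1, so the transcripts do not check these 3 labels. Among the 13, MRGBP, ING3 and DMAP1 did not pass the test (limma, adjusted p = 0.0948, 0.274 and 0.0642). MEAF6, at 68.2%, and VPS72, at 74.7%, rest on 1 library each. VPS72 had 23.8 FPKM there, within the 22.7 to 29.5 FPKM of the TIP60 knockout libraries, so its transcript does not check that label either. Among listed glioma or astrocyte genes, VIM, CD44 and EGFR were present in every control library. NES went down to 0.01 FPKM, and GFAP, OLIG2 and S100B reached at most 0.206, 0.0325 and 0.0601 FPKM. Among genes listed for other cell types, SYT1 of neurons had 14.4 to 99.6 FPKM and CD68 of leukocytes 1.42 to 27.1 FPKM. PTPRC, PECAM1, CDH5 and RBFOX3 reached at most 0.0953, 0.051, 0.15 and 0.13 FPKM, and CD3E, a T cell marker, was at 0. These genes therefore do not check the cell identity. The sgNeg1 section stood apart: 8081 to 8158 genes reached 1 FPKM in its libraries, against 10503 to 11853 elsewhere, and SOX2, at 14.3 to 79.0 FPKM in the other control libraries, went down to 0.181 FPKM there. The columns of the second guides of MEAF6 and VPS72 were identical in all 19102 genes, so that column was left out and each of these targets kept 1 library.

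Of the 43 genes, 40 passed the filter on low values (1 FPKM in 2 libraries) in 4 sections and 41 in the sgNeg1 section. PSMA8, an alpha subunit known from testis, was above 0 in 1 of the 46 libraries and reached 0.0479 FPKM, and PSMB11, the catalytic subunit of the thymus, reached 0.165 FPKM. The ATPase gene PSMC1 had 33.2 to 42.9 FPKM in the 6 libraries of the sgNeg1 section and 0.0533 to 0.878 FPKM in the other 40, so it was tested in the BRD8 comparison alone. The sgNeg1 section also listed other members at unlike levels: relative to the other sgNeg pairs, and after centring, the median shift was -1.87 for PSMB5, -1.20 for PSMD10, 2.01 for PSMC6 and 3.01 for PSME2 on the log2 scale. The values of the BRD8 comparison come from within that section.

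Subunits that sit in the same particle were listed at very different levels per length. In the sgNeg2 pair the alpha subunit PSMA7 had the highest mean, 408.5 FPKM, and its ring neighbour PSMA5 had 27.3 FPKM. The catalytic subunit PSMB5 averaged 219 FPKM there, its immunoproteasome counterpart PSMB8 35.4 FPKM, PSMB9 12.0 FPKM and PSMB10 19.8 FPKM. PSMD5, a chaperone of base assembly, had the lowest mean of the 40 tested members in this pair, 8.30 FPKM. Together the 43 genes took 0.841% to 1.30% of the summed FPKM of a library.

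With p53, 35 of the 40 tested members were called (members by comparison are shown in the map of fold changes). In A382_P53 cells 32 of the 40 tested members were lower and 3 were higher than in A382_PCW cells, and the largest falls were in the alpha ring, the beta ring and a base chaperone. Among all 12203 genes tested there, 46.7% were called lower and 37.6% higher (84.3% in all), and the members' share called, 87.5%, was close to that background. The median log2 fold change was -0.46 over the members and -0.13 over all tested genes. Rescaling the libraries to the middle of their genes moved the median of all genes to 0.05. After it 26 members were lower and 7 higher, with a member median of -0.26. The share of all genes called after rescaling is not given here.

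**Figure D1:**
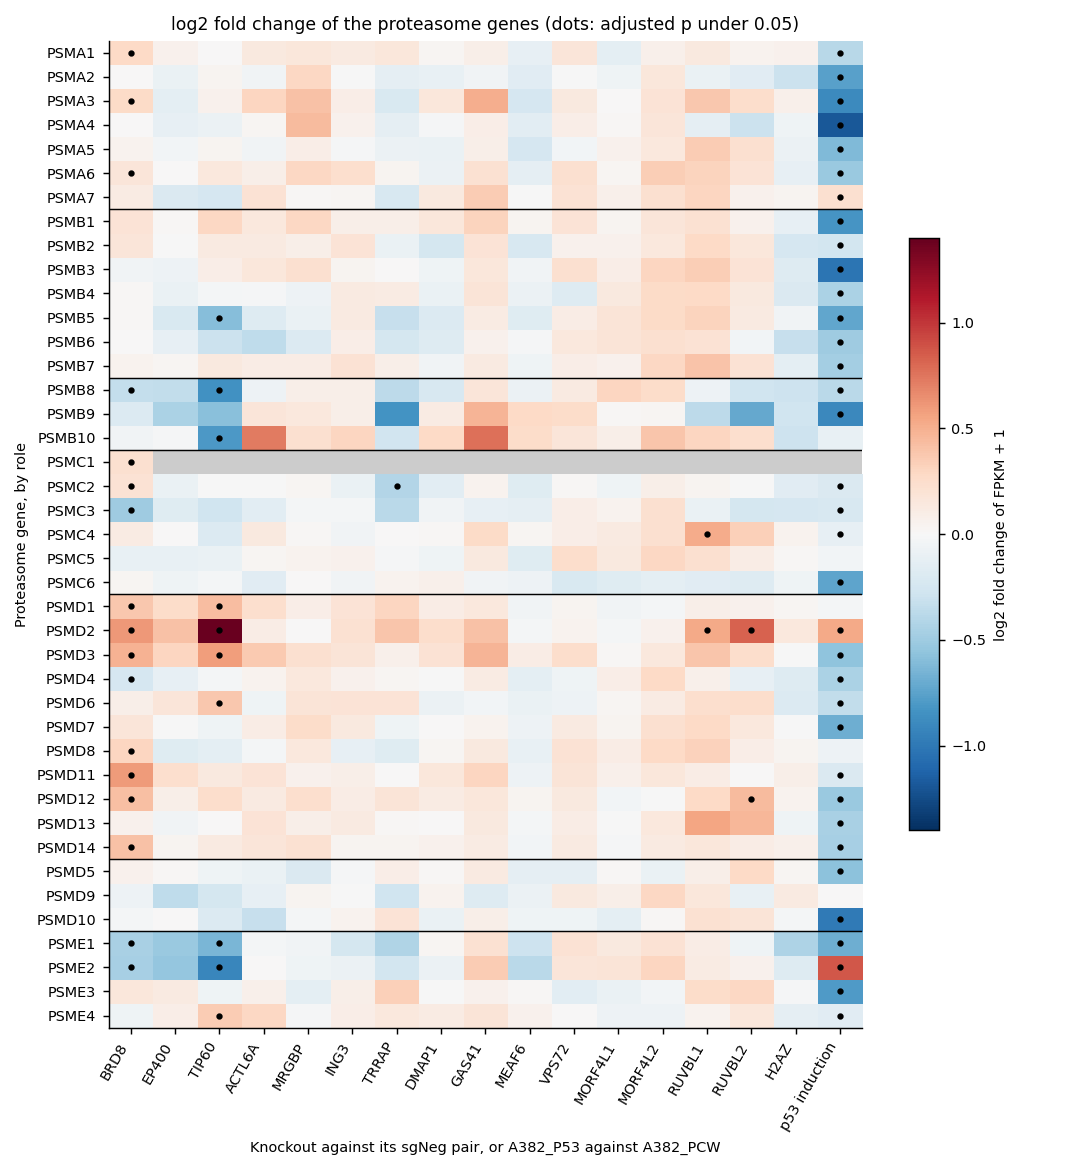
Log2 fold change (colour) of the 41 proteasome genes that were tested, down the page by role with lines between roles, for 16 knockouts against their own sgNeg pair and for A382_P53 against A382_PCW from left to right. Black dots mark adjusted p under 0.05 over all tested genes, and grey cells were not tested. The p53 column holds 32 lower calls, and PSMD2 is called higher in 5 columns.

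PSMA4, an alpha ring subunit, had 56.2 and 55.6 FPKM in A382_P53, against 135 and 123 FPKM in A382_PCW. Its log2 fold change was -1.19 ± 0.06 (SE, n = 2 and 2; adjusted p = 8.87e-07). PSMB3, a non-catalytic beta subunit, had 99.4 and 100.1 FPKM in A382_P53, against 196 and 213 FPKM in A382_PCW. Both A382_P53 libraries lay well under both controls for each of these genes. Both lay under both controls in 51% of all tested genes. PSMB3 changed by -1.03 ± 0.05 (adjusted p = 1.16e-06). PSMD10, the base chaperone also called gankyrin, had 31.2 and 36.3 FPKM in A382_P53, against 69.5 and 66.0 FPKM in A382_PCW. Its change was -0.99 ± 0.08 (adjusted p = 1.1e-05), again with no overlap. PSMB9 of the immunoproteasome had 15.1 and 13.4 FPKM in A382_P53, against 25.8 and 29.3 FPKM in A382_PCW, and changed by -0.91 ± 0.08 (adjusted p = 2.94e-05).

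By role, the members lower in A382_P53 were 6 of 7 alpha ring genes, all 7 constitutive beta ring genes, 4 of 5 ATPases, 8 of 11 non-ATPase subunits, 2 of 3 base chaperones and 3 of 4 activators. PSMB8 and PSMB9 of the immunoproteasome were lower too, beside 46.7% of all tested genes called lower and 84.3% called in all. The sizes differed by role, with medians of -0.61 for the alpha ring, -0.50 for the beta ring, -0.44 for the non-ATPase subunits and -0.20 for the ATPases. The catalytic subunit PSMB5, which carries the chymotrypsin-like site, had 193 and 192 FPKM in A382_P53, against 309 and 331 FPKM in A382_PCW (log2 fold change -0.73 ± 0.05, adjusted p = 4.57e-06). Not called were PSMB10 (-0.11), PSMD8 (-0.08), PSMC5 (-0.04), PSMD1 (-0.02) and PSMD9 (0.01).

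The 3 members that rose with p53 were PSME2, PSMD2 and PSMA7. PSME2, the beta subunit of PA28, had 141 and 138 FPKM in A382_P53, against 72.7 and 79.5 FPKM in A382_PCW (log2 fold change 0.87 ± 0.05, adjusted p = 3.93e-06). Its partner PSME1 went the other way, with 85.2 and 86.1 FPKM in A382_P53 against 140.5 and 137 FPKM in A382_PCW (-0.69 ± 0.04, adjusted p = 3.46e-06). The ratio of PSME2 to PSME1 in FPKM was 1.66 and 1.60 in A382_P53, against 0.517 and 0.582 in A382_PCW. PSMD2, the base subunit that docks shuttle proteins, had 181 and 181 FPKM in A382_P53, against 124.5 and 125 FPKM in A382_PCW (0.53 ± 0.04, adjusted p = 1.01e-05). PSMA7 had 467 and 440.4 FPKM in A382_P53, against 384 and 393 FPKM in A382_PCW, a small rise of 0.22 ± 0.05 (adjusted p = 0.00271). None of these 4 genes had overlapping groups. Of all tested genes, 41% had both A382_P53 libraries above both controls and 51% had both below.

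**Figure D2:**
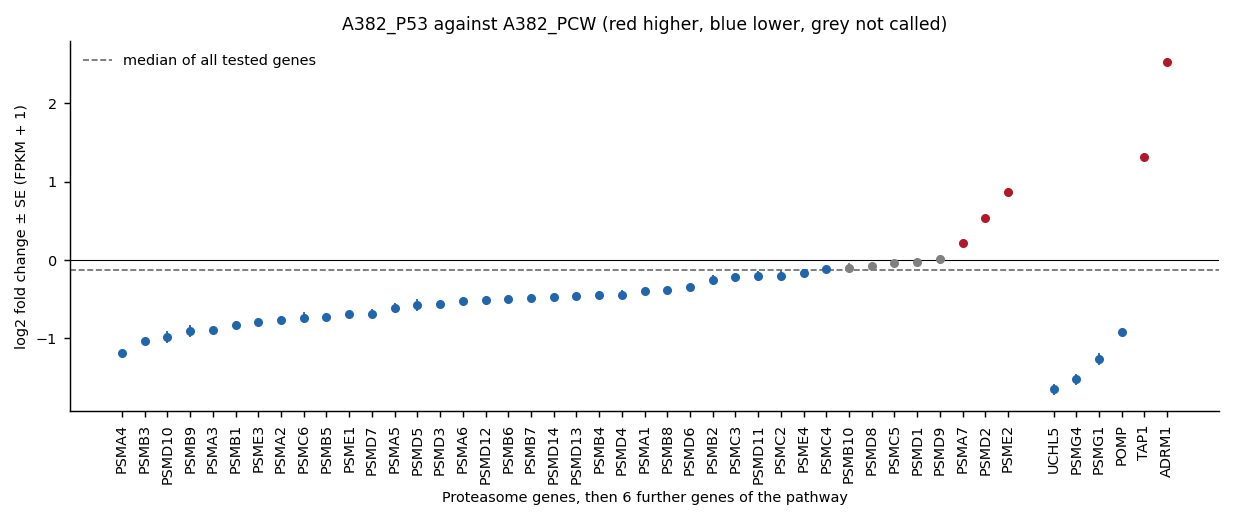
Log2 fold change (FPKM + 1) with SE for the 40 tested proteasome genes and 6 further genes of the pathway in A382_P53 against A382_PCW (2 libraries each). The dashed line is the median of all tested genes, -0.13; 32 members are lower (blue), 5 are not called (grey) and PSMA7, PSMD2 and PSME2 are higher (red).

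Genes that build or attach to the proteasome but lie outside the symbol rule moved in both directions with p53. Of 6 other assembly factors, 5 fell and 0 rose. PSMG4, which helps to build the alpha ring, had 7.80 and 6.94 FPKM in A382_P53, against 22.2 and 23.9 FPKM in A382_PCW (-1.53 ± 0.08), and POMP, which matures the core, had 34.5 and 37.7 FPKM, against 69.5 and 68.9 FPKM (-0.92 ± 0.05). Of 11 proteasome-bound proteins 8 fell and 3 rose. Among all 12203 genes tested with p53, 46.7% were called lower and 37.6% higher (84.3% in all), so a call alone does not set these lists apart. ADRM1, a ubiquitin receptor that docks on PSMD1, had 667 and 606 FPKM in A382_P53, against 107 and 112 FPKM in A382_PCW (2.53 ± 0.06, adjusted p = 3.81e-08). UCHL5, the deubiquitinase that binds ADRM1, had 4.18 and 4.32 FPKM in A382_P53, against 15.2 and 15.8 FPKM in A382_PCW (-1.65 ± 0.07, adjusted p = 5.09e-07). The FPKM ratio of ADRM1 to UCHL5 was thus 160 and 140.1 in A382_P53, against 7.05 and 7.06 in A382_PCW. NFE2L2, a relative of NFE2L1, fell by 1.19 on the log2 scale.

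PSMD2 was the member called in the most comparisons. It was higher in 5 of 17, namely after knockout of BRD8, TIP60, RUVBL1 and RUVBL2 and with p53, and it was called lower in 0. Of all tested genes, 24.2%, 15.4%, 12.3%, 13.5% and 37.6% were called higher in these 5, in that order. The share of all genes called in as many comparisons is not given here. In TIP60 knockout cells PSMD2 had 337 and 245 FPKM, against 116 and 103 FPKM in the sgNeg2 pair, a log2 fold change of 1.39 ± 0.16 (adjusted p = 1.38e-05). Guide 1 was the higher of the 2 guides, and both lay above every other library of that section. In RUVBL2 knockout cells it had 192 and 192 FPKM, against 106 and 109 FPKM in the sgNeg3 pair (0.83 ± 0.15, adjusted p = 0.00322). RUVBL1 knockout cells had 152 and 159 FPKM, against the same 106 and 109 FPKM (0.53 ± 0.15, adjusted p = 0.0285). In BRD8 knockout cells it had 104, 110.1, 103 and 108 FPKM, against 68.5 and 70.6 FPKM in the sgNeg1 pair (0.60 ± 0.05, adjusted p = 3.85e-05). In all 4 the groups did not overlap. Of all tested genes, every knockout library lay above both controls in 32.2% for BRD8, 26.3% for TIP60, 38.5% for RUVBL1 and 36.2% for RUVBL2. The RUVBL1 call was lost whichever of its 4 libraries was left out (adjusted p 0.0901 to 0.165) and against all 8 sgNeg libraries (0.19, adjusted p = 0.494), while the RUVBL2 call stayed without each library in turn.

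**Figure D3:**
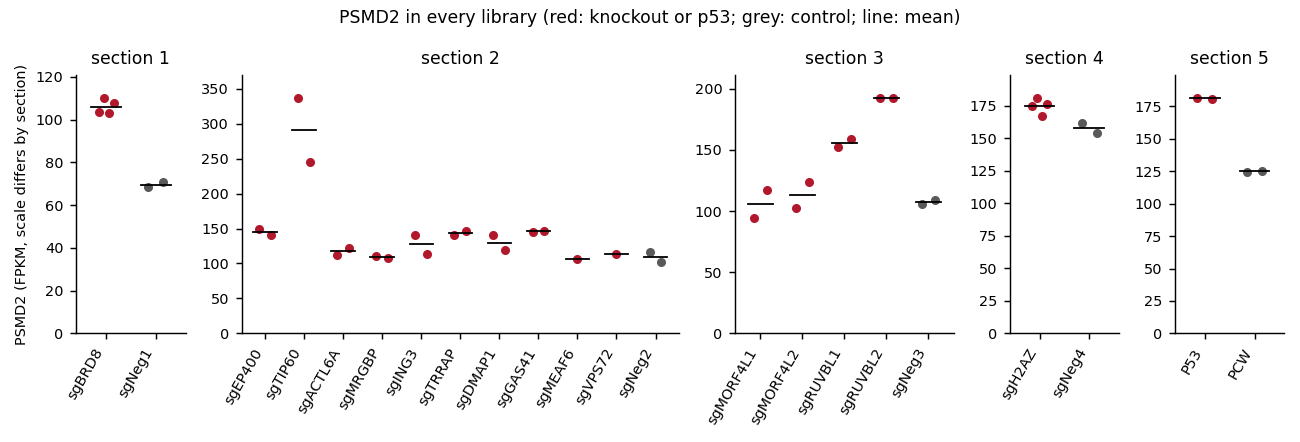
PSMD2 in FPKM (vertical axis, from 0, with its own scale in each section) for every library used, by group; red points are knockout or A382_P53 libraries, grey points are sgNeg or A382_PCW libraries, and lines are means. Both TIP60 libraries, 337 and 245 FPKM, lie above the other libraries of section 2.

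PSMD2 was not called after the other knockouts. EP400 knockout cells had 150 and 140.2 FPKM, GAS41 knockout cells 145 and 147 FPKM and TRRAP knockout cells 141 and 146 FPKM, against 116 and 103 FPKM in the sgNeg2 pair. These groups did not overlap with the controls either, with log2 fold changes of 0.41 ± 0.16 for EP400, 0.42 ± 0.16 for GAS41 and 0.39 ± 0.16 for TRRAP (adjusted p = 0.174, 0.207 and 0.117). Both knockout libraries lay above both controls in 25.1% of all tested genes for EP400, 24.4% for GAS41 and 28.7% for TRRAP. H2AZ knockout cells had 175, 181, 167 and 176 FPKM, against 162 and 154 FPKM in the sgNeg4 pair (0.14 ± 0.09, adjusted p = 0.416). Set directly against each other, TIP60 knockout cells had more PSMD2 than EP400 knockout cells (0.98 ± 0.16, adjusted p = 0.000806) and than TRRAP knockout cells (1.00 ± 0.16, adjusted p = 0.000279). RUVBL2 and RUVBL1 knockout cells differed by 0.30 ± 0.15 (adjusted p = 0.931), which did not pass. In that direct comparison 0 members were called by limma, against 0.00904% of all genes, and 0 had an unadjusted p under 0.05.

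In TIP60 knockout cells 5 of the 40 tested members were higher and 5 lower, against 15.4% of all 11382 genes called higher and 26.6% called lower (42.0% in all). The 5 that rose were PSMD1, PSMD2, PSMD3 and PSMD6 of the regulatory particle and PSME4, the nuclear activator PA200. The 5 that fell were PSMB5, PSMB8 and PSMB10 of the catalytic sites and the PA28 genes PSME1 and PSME2. The member median was -0.02, beside -0.09 for all genes. Rescaling moved the median of all genes to 0.03, and then 7 members were higher and 5 lower. The share of all genes called in that fit is not given here.

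Among the scaffold and lid genes, PSMD3, a lid subunit, had 84.0 and 64.5 FPKM in TIP60 knockout cells, against 52.3 and 45.4 FPKM in the sgNeg2 pair (0.59 ± 0.16, adjusted p = 0.00729). PSMD1, the second large scaffold of the base, had 56.0 and 62.8 FPKM, against 44.8 and 42.8 FPKM (0.43 ± 0.11, adjusted p = 0.00695). PSMD6, a lid subunit, had 74.1 and 70.8 FPKM, against 57.8 and 52.97 FPKM (0.38 ± 0.12, adjusted p = 0.0185). In each case both knockout libraries were above both controls, as they were in 26.3% of all tested genes and in 7 of the 40 members. PSMB5 had 165 and 126 FPKM in TIP60 knockout cells, against 240 and 199 FPKM in the sgNeg2 pair (-0.59 ± 0.21, adjusted p = 0.0355). The ATPases had 0 calls of 5 tested and the alpha ring 0 of 7. The count of 10 members became 5 without guide 2 of TIP60, 6 without sgNeg2 replicate 2, and 4 when only the 4 libraries of the comparison were fitted. The PSMD2, PSME2 and PSMB8 calls held without each library in turn, whereas PSMD1, PSMD3, PSMD6, PSMB10 and PSME1 each lost the call without at least 1. The PSMB5 and PSME4 calls were not followed with libraries left out.

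PSMB8 of the immunoproteasome and the PA28 genes PSME1 and PSME2 were lower in the TIP60 and in the BRD8 knockout. In TIP60 knockout cells PSMB8 had 20.8 and 17.6 FPKM, against 38.2 and 32.6 FPKM in the sgNeg2 pair (-0.85 ± 0.18, adjusted p = 0.00142). PSMB10 had 13.8 and 8.67 FPKM, against 19.7 and 20.0 FPKM (-0.80 ± 0.23, adjusted p = 0.0106), and PSMB9 had 9.18 and 6.13 FPKM, against 14.7 and 9.35 FPKM (-0.58 ± 0.29, adjusted p = 0.12). Both knockout libraries were below both controls for all 3, though the PSMB9 difference did not pass the test. Both were below both controls in 39.9% of all tested genes. Without guide 2 PSMB10 was at -0.49 (adjusted p = 0.136). PSME2 had 52.9 and 39.8 FPKM in TIP60 knockout cells, against 98.0 and 78.0 FPKM in the sgNeg2 pair (-0.91 ± 0.21, adjusted p = 0.003). PSME1 had 110 and 83.1 FPKM, against 162 and 137 FPKM (-0.64 ± 0.22, adjusted p = 0.0273), and lost the call without sgNeg2 replicate 1 or without guide 2 (adjusted p = 0.159 and 0.189). The third PA28 gene PSME3, which forms a nuclear ring of its own, had 36.6 and 37.4 FPKM, against 41.3 and 35.9 FPKM (-0.06, not called).

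In BRD8 knockout cells PSME2 had 194, 194, 224 and 194 FPKM, against 264 and 296 FPKM in the sgNeg1 pair (-0.47 ± 0.08, adjusted p = 0.000992). PSME1 had 91.6, 91.8, 101 and 90.6 FPKM, against 128 and 129 FPKM (-0.45 ± 0.06, adjusted p = 0.000313), and PSMB8 had 14.8, 15.0, 16.8 and 14.9 FPKM, against 18.4 and 20.9 FPKM (-0.33 ± 0.07, adjusted p = 0.00494). All 4 knockout libraries lay below both controls for these 3 genes, as they did in 29.3% of all tested genes (21.7% called lower). The first library of guide 2 was the highest of the 4 for each of the 3. Without sgNeg1 replicate 2 PSMB8 was at -0.24 (adjusted p = 0.0722). PSMB9 had 6.77, 6.21, 7.30 and 4.89 FPKM, against 7.04 and 7.43 FPKM, and PSMB10 had 11.4, 13.4, 15.1 and 12.5 FPKM, against 13.1 and 13.8 FPKM. The groups overlapped for both, at -0.19 ± 0.12 (adjusted p = 0.215) for PSMB9 and -0.04 ± 0.09 (adjusted p = 0.723) for PSMB10. Set against all 8 sgNeg libraries after rescaling, the sign turned for these 5 genes, at 1.89 for PSME2, 0.55 for PSME1, 0.20 for PSMB8, 0.50 for PSMB9 and 0.87 for PSMB10, beside the shift of the sgNeg1 section given above.

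With p53, PSMB8 had 85.0 and 86.1 FPKM in A382_P53, against 112 and 111 FPKM in A382_PCW (-0.38 ± 0.04, adjusted p = 8.06e-05). PSMB10 had 29.7 and 26.7 FPKM, against 29.6 and 31.1 FPKM, where the groups overlapped (-0.11 ± 0.06, adjusted p = 0.165) and the sign turned to 0.09 after rescaling. Both peptide transporter genes lie next to PSMB8 and PSMB9 on chromosome 6, in the order TAP2, PSMB8, TAP1 and PSMB9. TAP1 had 96.2 and 94.3 FPKM in A382_P53, against 37.4 and 37.8 FPKM in A382_PCW (1.32 ± 0.04, adjusted p = 1.88e-07), while TAP2 fell by 0.80 on the log2 scale. The FPKM ratio of TAP1 to PSMB9 was 6.39 and 7.03 in A382_P53, against 1.45 and 1.29 in A382_PCW. IRF1, a transcription factor known to induce these genes, had 58.6 and 57.6 FPKM in A382_P53, against 7.004 and 7.76 FPKM in A382_PCW (2.82 ± 0.06), and NLRC5, which activates MHC class I genes, had 0.909 and 1.37 FPKM, against 7.59 and 7.91 FPKM (-2.04 ± 0.11). In the TIP60 knockout TAP1 fell with PSMB8 (-0.75 ± 0.20), IRF1 was higher (0.63 ± 0.18) and NLRC5 was lower (-0.39 ± 0.13). In the BRD8 knockout TAP1 (-0.29 ± 0.06) and NLRC5 (-0.33 ± 0.08) were lower.

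**Figure D4:**
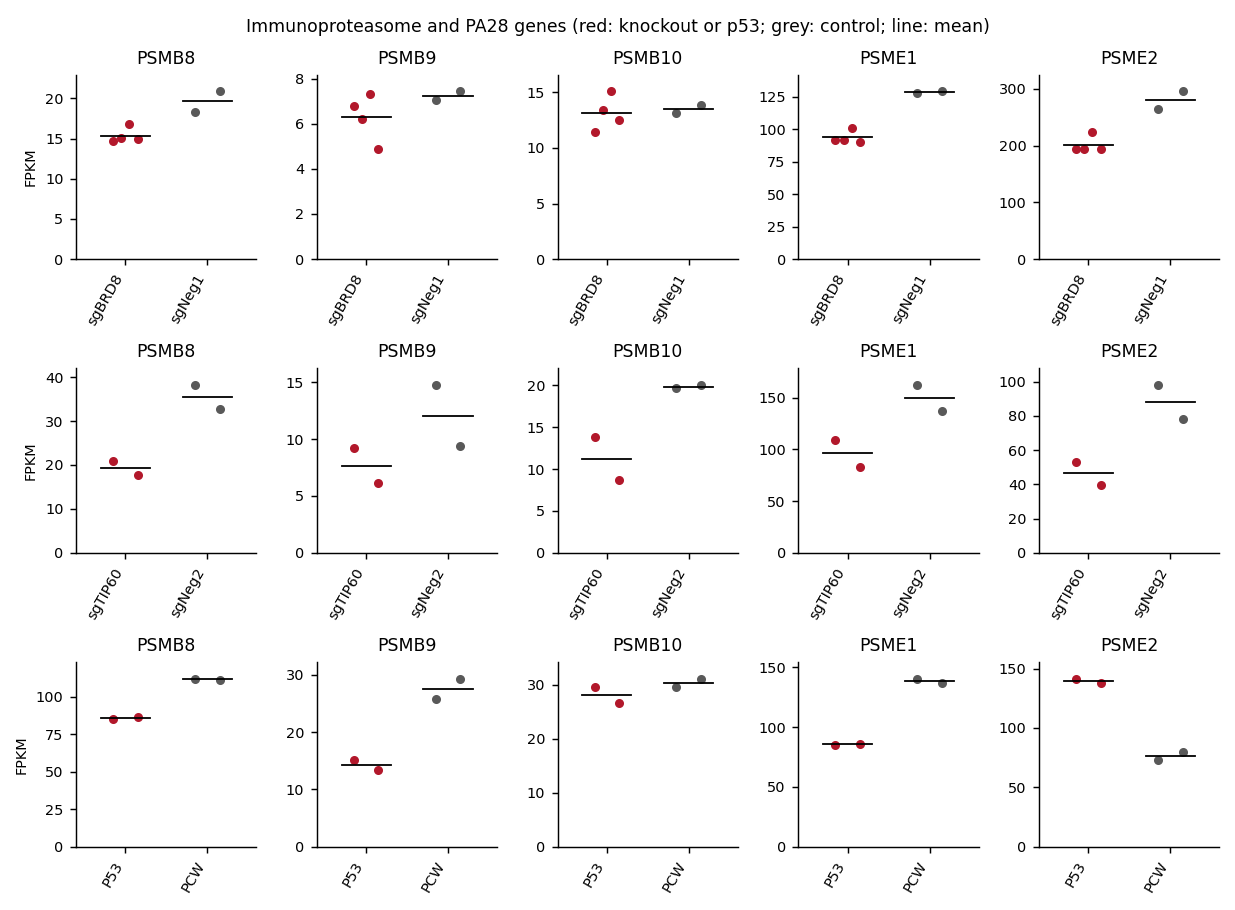
FPKM (vertical axes, from 0) of PSMB8, PSMB9, PSMB10, PSME1 and PSME2 in the libraries of BRD8 against sgNeg1 (top), TIP60 against sgNeg2 (middle) and A382_P53 against A382_PCW (bottom); points are libraries and lines are means. PSME2 is below its controls in the top and middle panels (194 to 224 against 264 and 296 FPKM; 52.9 and 39.8 against 98.0 and 78.0 FPKM) and above them in the bottom panel (141 and 138 against 72.7 and 79.5 FPKM).

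The start regions of these 5 genes are shown because 4 of them hold the letters of an interferon-stimulated element. RefSeq (GRCh38.p14) windows from 250 bases before to 50 bases after the annotated start were found for 38 of the 43 members, and the first 280 bases are printed. Both strands were searched for GAAA followed, after 2 bases of any kind, by a second GAAA, which lies in at least 1 window of 6 of the 38 members (15.8%) and of 4.38% of all 27305 genes with a window. The members are PSMA4, PSMB4, PSMB8, PSMB10, PSME1 and PSME2. The match, in capitals, starts at base -4 relative to the start in PSMB8 (chr6:32844018-32844297, minus strand), -21 in PSMB10 (chr16:67936821-67937100, minus strand), 5 in PSME1 (chr14:24135944-24136223, plus strand) and -28 in PSME2 (chr14:24146581-24146860, minus strand). PSMB9 (chr6:32853942-32854221, plus strand) has no match in this window. PSME1 and PSME2 have a single coding gene, EMC9, between them on chromosome 14.
PSMB8: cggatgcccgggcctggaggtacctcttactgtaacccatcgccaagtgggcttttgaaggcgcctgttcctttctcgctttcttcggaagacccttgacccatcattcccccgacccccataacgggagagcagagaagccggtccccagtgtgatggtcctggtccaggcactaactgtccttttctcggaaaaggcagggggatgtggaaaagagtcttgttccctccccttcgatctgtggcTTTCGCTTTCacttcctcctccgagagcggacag
PSMB9: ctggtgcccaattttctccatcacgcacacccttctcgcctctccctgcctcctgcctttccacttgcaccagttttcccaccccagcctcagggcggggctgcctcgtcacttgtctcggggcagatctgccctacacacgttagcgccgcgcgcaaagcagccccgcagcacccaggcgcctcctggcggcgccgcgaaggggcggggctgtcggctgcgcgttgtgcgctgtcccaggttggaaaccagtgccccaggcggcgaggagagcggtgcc
PSMB10: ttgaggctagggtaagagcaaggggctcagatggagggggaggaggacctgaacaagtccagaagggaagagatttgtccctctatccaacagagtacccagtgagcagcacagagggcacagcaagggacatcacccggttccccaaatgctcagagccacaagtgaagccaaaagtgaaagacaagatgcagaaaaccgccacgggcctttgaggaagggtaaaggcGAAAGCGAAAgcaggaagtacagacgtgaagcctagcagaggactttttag
PSME1: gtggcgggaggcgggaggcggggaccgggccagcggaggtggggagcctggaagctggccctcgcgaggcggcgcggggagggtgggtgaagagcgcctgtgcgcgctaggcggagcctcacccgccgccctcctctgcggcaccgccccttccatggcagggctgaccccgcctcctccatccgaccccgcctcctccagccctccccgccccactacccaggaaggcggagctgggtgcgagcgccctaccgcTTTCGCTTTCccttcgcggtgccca
PSME2: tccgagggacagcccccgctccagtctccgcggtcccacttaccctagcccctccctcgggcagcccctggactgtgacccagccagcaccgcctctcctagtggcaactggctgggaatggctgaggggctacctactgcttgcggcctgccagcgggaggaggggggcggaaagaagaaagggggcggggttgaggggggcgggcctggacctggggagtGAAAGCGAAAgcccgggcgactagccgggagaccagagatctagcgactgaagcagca

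In BRD8 knockout cells 12 of the 41 tested members were higher and 5 lower (29.3% and 12.2%), against 24.2% of all 8458 genes called higher and 21.7% called lower (45.9% in all). The member median was 0.06 and that of all genes 0.02. Of the 11 non-ATPase subunits of the regulatory particle, 7 were higher and 1 lower, with a median of 0.38. The 7 constitutive beta ring genes had 0 calls, and the 3 base chaperones also had 0.

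Next to PSMD2, PSMD11, the lid subunit that clamps the base to the core, had 17.5, 18.9, 16.8 and 16.5 FPKM in BRD8 knockout cells, against 10.7 and 11.7 FPKM in the sgNeg1 pair (0.59 ± 0.07, adjusted p = 0.000144). PSMD3 had 32.3, 34.0, 31.7 and 32.5 FPKM, against 22.2 and 23.7 FPKM (0.49 ± 0.06, adjusted p = 0.000135). PSMD12, also of the lid, had 5.70, 6.18, 5.89 and 5.76 FPKM, against 4.06 and 4.26 FPKM (0.42 ± 0.06, adjusted p = 0.000581). No knockout library reached down to a control in any of these 3 genes. That was so in 32.2% of all tested genes. PSMD14, the deubiquitinase of the lid, had 40.8, 44.1, 41.1 and 39.5 FPKM, against 32.0 and 29.5 FPKM (0.42 ± 0.06, adjusted p = 0.00062). The other members that rose were PSMA1, PSMA3 and PSMA6 of the alpha ring, the ATPases PSMC1 and PSMC2, and PSMD1 and PSMD8, at 0.17 to 0.38. The ATPase PSMC3 fell, with 31.6, 32.5, 34.9 and 33.7 FPKM against 45.6 and 48.9 FPKM (-0.50 ± 0.06, adjusted p = 0.000176), and so did PSMD4, a ubiquitin receptor of the base (-0.24 ± 0.08, adjusted p = 0.0245). Without sgNeg1 replicate 1 the count of 17 members became 10 (6 higher, 4 lower), and against all 8 sgNeg libraries it became 30 (28 higher, 2 lower).

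Around the members, 9 of 11 proteasome-bound proteins and 3 of 6 other assembly factors were higher in BRD8 knockout cells and 0 of either list were lower, beside 24.2% of all genes higher and 21.7% lower. POMP had 34.0, 39.5, 31.8 and 33.8 FPKM in BRD8 knockout cells, against 23.9 and 24.5 FPKM in the sgNeg1 pair (0.50 ± 0.08, adjusted p = 0.000794). NGLY1, which activates NFE2L1, was at 0.51 and NFE2L1 itself fell by 0.22 on the log2 scale. Of 10 tested p97 and shuttle genes, 6 rose and 0 fell.

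PSMD3 is shown as an example of the letters TGACNNNGC, the core of the antioxidant response element through which NFE2L1 acts. These letters lie, on either strand, in at least 1 window of 13 of 38 members (34.2%) and of 16.1% of all 27305 genes. The 13 are PSMA4, PSMB3, PSMB9, PSMC4, PSMC5, PSMD1, PSMD3, PSMD5, PSMD9, PSMD12, PSME1, PSME2 and PSME4, so members lower in the BRD8 and TIP60 knockouts hold them too. Among members with a window, they lay in 3 of 12 higher and 2 of 4 lower members for BRD8, and in 3 of 5 higher and 2 of 5 lower members for TIP60. In PSMD3 (chr17:39980557-39980836, plus strand) the match in capitals starts at base -37. PSMD2 was not among the 13.
PSMD3: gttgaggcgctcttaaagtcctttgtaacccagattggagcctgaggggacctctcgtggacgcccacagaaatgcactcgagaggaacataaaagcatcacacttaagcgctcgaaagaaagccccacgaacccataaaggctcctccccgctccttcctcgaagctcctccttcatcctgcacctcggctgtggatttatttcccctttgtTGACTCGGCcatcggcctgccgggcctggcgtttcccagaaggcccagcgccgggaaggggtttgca

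RUVBL1 and RUVBL2 encode partner ATPases that work in a shared ring in several complexes. In each knockout 2 of 40 members were higher and 0 lower, against 12.3% of 11063 genes called higher and 15.5% lower after RUVBL1 knockout (27.8% in all). After RUVBL2 knockout 13.5% were called higher and 19.9% lower (33.4% in all). In 31 members both RUVBL1 libraries were above both controls and in 5 both were below, where 38.5% and 42.4% of all tested genes did so. The member median was 0.22 for RUVBL1 and 0.12 for RUVBL2, beside -0.02 and -0.05 for all genes.

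Besides PSMD2, the ATPase PSMC4 had 84.7 and 98.3 FPKM in RUVBL1 knockout cells, against 64.1 and 63.1 FPKM in the sgNeg3 pair (0.51 ± 0.16, adjusted p = 0.0411). PSMD12 had 16.8 and 17.8 FPKM in RUVBL2 knockout cells, against 13.0 and 11.9 FPKM in the sgNeg3 pair (0.45 ± 0.12, adjusted p = 0.0177). In both genes the knockout libraries were above the controls, and both calls were lost without any 1 of the 4 libraries (adjusted p 0.0725 to 0.253 for PSMC4, 0.067 to 0.139 for PSMD12). The fit used the spread of all 10 libraries of the section. With the 4 libraries of each comparison alone, 24 members were called for RUVBL1 (23 higher, 1 lower) and 18 for RUVBL2 (13 higher, 5 lower). Against all 8 sgNeg libraries 0 were called for RUVBL1 and 8 for RUVBL2 (4 higher, 4 lower). The share of all genes called in these refits is not given here. The shares of 27.8% and 33.4% above belong to the fit of the whole section. The member medians against all 8 turned sign, to -0.02 for RUVBL1 and -0.09 for RUVBL2. POMP rose in both, with 56.4 and 68.7 FPKM in RUVBL1 and 56.8 and 72.5 FPKM in RUVBL2 knockout cells, against 40.7 and 35.7 FPKM (0.69 ± 0.20 and 0.74 ± 0.20). ZFAND2A, a proteasome-bound protein known to be induced by arsenite, had 82.3 and 98.5 FPKM in RUVBL1 and 76.6 and 82.1 FPKM in RUVBL2 knockout cells, against 19.8 and 20.1 FPKM (2.12 ± 0.23 and 1.94 ± 0.23). MAFF, a small partner of NFE2L1, also rose in both (1.34 and 1.42).

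The other knockouts gave 1 call among the members. In TRRAP knockout cells PSMC2 alone was lower, against 7.71% of genes called lower and 6.54% called higher (14.2% in all). This ATPase had 38.0 and 33.1 FPKM in TRRAP knockout cells, against 50.6 and 44.6 FPKM in the sgNeg2 pair (-0.41 ± 0.12, adjusted p = 0.0368). Both TRRAP libraries were below both controls in 29.3% of all tested genes. The groups did not overlap, but the call was lost without either sgNeg2 library or without guide 2, while 3 members were called without guide 1. EP400 knockout gave 0 calls among 40 members, against 3.83% of all genes. Its smallest adjusted p was for PSME2, with 63.0 and 57.0 FPKM in EP400 knockout cells and 98.0 and 78.0 FPKM in the sgNeg2 pair (-0.54 ± 0.21, adjusted p = 0.171). By limma, 4 members had an unadjusted p under 0.05 in the EP400 comparison. Directly compared, TIP60 knockout cells had less PSMB10 than EP400 knockout cells (-0.78 ± 0.23, adjusted p = 0.0235), a call lost without either EP400 library or without TIP60 guide 2 (adjusted p 0.0887 to 0.187), against 13.5% of genes called lower, 7.82% called higher and 21.3% in all. PSMB10 had 13.8 and 8.67 FPKM in TIP60 and 20.3 and 18.9 FPKM in EP400 knockout cells. PSMB8 (-0.51, adjusted p = 0.0542) and PSMB9 (-0.14, adjusted p = 0.767) did not pass.

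Against TRRAP knockout cells, TIP60 knockout cells had 3 members higher and 4 lower, where 14.6% and 23.7% of genes were called (38.2% in all). After rescaling the split was 6 higher and 1 lower, for which the share of all genes is not given here. PSMD3 (0.51 ± 0.16, adjusted p = 0.0181) and PSMC2 (0.41 ± 0.12, adjusted p = 0.0166) were higher with PSMD2, and PSME2 (-0.66 ± 0.21, adjusted p = 0.024), PSMB8 (-0.48 ± 0.18, adjusted p = 0.0454), PSME3 (-0.38 ± 0.12, adjusted p = 0.022) and PSMD10 (-0.38 ± 0.13, adjusted p = 0.033) were lower. PSMD3 had 84.0 and 64.5 FPKM in TIP60 and 55.7 and 47.4 FPKM in TRRAP knockout cells. PSME3 had 36.6 and 37.4 FPKM in TIP60 and 48.4 and 48.8 FPKM in TRRAP knockout cells, with no overlap. Both TIP60 libraries were below both TRRAP libraries in 38% of all tested genes. Of these 7 calls, only that of PSMD2 held without each library in turn.

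NFE2L3, a relative of NFE2L1, was higher after 5 of the knockouts set against sgNeg2. It had 47.6 and 44.6 FPKM in TIP60, 23.9 and 22.7 FPKM in EP400, 20.3 and 16.6 FPKM in GAS41, 14.5 and 19.3 FPKM in ACTL6A and 13.7 and 18.3 FPKM in TRRAP knockout cells, against 7.39 and 8.19 FPKM in the sgNeg2 pair. The log2 fold changes were 2.42, 1.47, 1.14, 1.02 and 0.94 in that order, all with no overlap and all called. Both libraries lay above both controls in 26.3%, 25.1%, 24.4%, 19.6% and 28.7% of all tested genes, in the same order. NFE2L1 fell in TIP60 knockout cells, with 44.7 and 43.8 FPKM against 79.3 and 81.3 FPKM (-0.85 ± 0.12, adjusted p = 7.83e-05).

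Besides EP400, 10 of the 16 knockouts had 0 members called by limma, namely ACTL6A, MRGBP, ING3, DMAP1, GAS41, MEAF6, VPS72, MORF4L1, MORF4L2 and H2AZ. The share of all genes called in either direction was 0.782% for ACTL6A, 0.264% for MRGBP, 0.0264% for ING3, 0.94% for GAS41 and 6.02% for H2AZ, and 0 genes were called for DMAP1, MEAF6, VPS72, MORF4L1 and MORF4L2. The members with an unadjusted p under 0.05 numbered 4 for ACTL6A, 1 for MRGBP, 5 for GAS41, 3 for H2AZ and 0 for the other 6. PSMB10 had the smallest adjusted p of the members in GAS41 and in ACTL6A knockout cells. It had 29.9 and 39.9 FPKM in GAS41 and 27.3 and 40.8 FPKM in ACTL6A knockout cells, against 19.7 and 20.0 FPKM in the sgNeg2 pair (0.77 ± 0.23, adjusted p = 0.105, and 0.72 ± 0.23, adjusted p = 0.132). Neither passed. No knockout library overlapped the controls, but both lay above both controls in 24.4% of all tested genes for GAS41 and 19.6% for ACTL6A. In GAS41 knockout cells 17 of 40 members were above both controls in both libraries and 0 were below, where 24.4% and 29.4% of all tested genes were. PSME1 had 234, 199.9, 170.04 and 205 FPKM in H2AZ knockout cells, against 318 and 231 FPKM in the sgNeg4 pair (-0.43 ± 0.16, adjusted p = 0.149). The groups overlapped, since the lower control, at 231 FPKM, lay under the highest knockout library.

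The other comparisons without a call had these members at the smallest adjusted p. MRGBP knockout cells had 173 and 112 FPKM of PSMA4, against 111 and 94.4 FPKM in the sgNeg2 pair (0.44 ± 0.17, adjusted p = 0.288). ING3 knockout cells had 52.5 and 47.9 FPKM of PSMD1, against 44.8 and 42.8 FPKM (0.19 ± 0.11, adjusted p = 0.645), and DMAP1 knockout cells had 12.9 and 14.4 FPKM of PSMB2, a beta ring subunit, against 17.9 and 15.0 FPKM (-0.25 ± 0.13, adjusted p = 0.604). The groups did not overlap in these 3. Of all tested genes, both libraries were above both controls in 15.8% for MRGBP and 21% for ING3, and below both in 22.9% for DMAP1. The single MEAF6 library had 67.0 FPKM of PSME2, against 98.0 and 78.0 FPKM (-0.38, adjusted p = 1.0), and the single VPS72 library had 16.3 FPKM of the ATPase PSMC6, against 20.1 and 17.9 FPKM (-0.21, adjusted p = 1.0). Libraries labelled MORF4L1 had 35.8 and 47.2 FPKM of PSMB8, against 35.0 and 31.5 FPKM in the sgNeg3 pair (0.30 ± 0.25, adjusted p = 1.0), and libraries labelled MORF4L2 had 27.1 and 40.5 FPKM of PSMD9, a base chaperone, against 27.3 and 26.8 FPKM (0.28 ± 0.19, adjusted p = 0.857).

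Libraries of 1 group could differ in the common level of the members. In the sgNeg4 pair replicate 1 was above replicate 2 in 36 of 40 members, with a median difference of 0.37 on the log2 scale, and in the sgNeg2 pair in 38 of 40 (0.24). Guide 1 was above guide 2 in 34 of 40 members for TIP60 (0.25), 37 of 40 for TRRAP (0.24) and 39 of 40 for MRGBP (0.45). It was above guide 2 in only 2 of 40 members for MORF4L1 (a median of -0.35) and 3 of 40 for MORF4L2 (-0.58). The median difference over all genes was 0.01 in the sgNeg4 pair, 0.02 in the sgNeg2 pair, 0.04 for TIP60, 0.06 for TRRAP, 0.10 for MRGBP, -0.03 for MORF4L1 and -0.08 for MORF4L2. The sgNeg3 pair differed by 0.02 in the members. Leaving out sgNeg4 replicate 2 gave 5 lower members for H2AZ, and leaving out guide 1 gave 9 higher members for MORF4L2. In the p53 experiment the median of these members, with PSMB8, PSMB9, PSMB10, PSME1 and PSME2 left out, lay at -0.22 and -0.25 in A382_P53, against 0.21 and 0.24 in A382_PCW, relative to the section's mean.

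**Figure D5:**
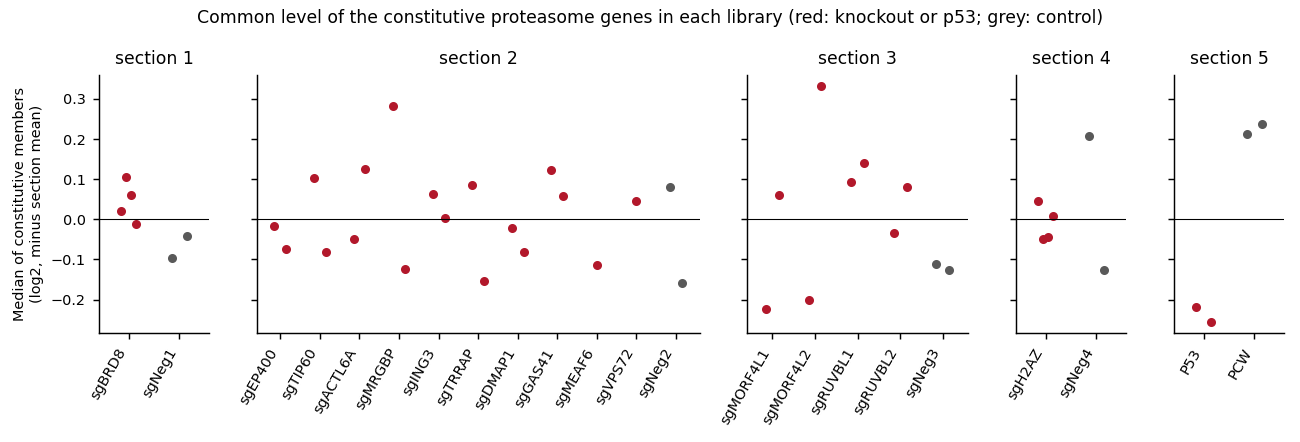
Median, over the tested members other than PSMB8, PSMB9, PSMB10, PSME1 and PSME2, of log2(FPKM + 1) minus the gene's mean in its section, for each library (points) by group; red points are knockout or A382_P53 libraries and grey points are sgNeg or A382_PCW libraries. The A382_P53 libraries lie at -0.22 and -0.25 and the A382_PCW libraries at 0.21 and 0.24, while the sgNeg2 and sgNeg4 pairs are split within themselves.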

How the data were processed

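Values were FPKM per gene as deposited by the authors, for 19102 genes in 48 libraries. Per the submitters' processing notes, the tools were TopHat2, Cufflinks and Cuffdiff and the genome build was hg19. Their versions are not given in the sources used here. FPKM values reflect the gene models and the scaling of each section, and the 5 sections were taken to be scaled separately, so tests stayed within a section. Groups came from the labels. The 43 genes, the gene lists and the tests were chosen with earlier results of these data known. Of the 48 libraries 46 were fitted, since the second-guide columns of MEAF6 and VPS72 were identical, and 0 columns belonged to other samples. Genes with at least 1 FPKM in 2 libraries of a section were tested on log2(FPKM + 1) with limma 3.58.1 in R 4.3.3, with an intensity trend, the spread of all libraries of the section and Benjamini-Hochberg adjustment over all tested genes (threshold 0.05). The step was tested on simulated data. Their noise was drawn independently for each gene and library, so they did not hold the shared shifts of the members between libraries. With 2 libraries a group, a single library can decide a call.

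Values in every library are given for up to 4 called members with the largest rise and up to 4 with the largest fall in a comparison, for PSMB8, PSMB9 and PSMB10 wherever at least 1 of them was called, and, where none was called, for the member with the smallest adjusted p. PSMB5, PSMD14, POMP, ADRM1, UCHL5, TAP1, IRF1, NLRC5, NFE2L3, ZFAND2A and the other genes outside that rule were chosen after their values were seen. Alternatives were another pseudocount, no filter or a filter at 5 FPKM, rescaled libraries, fits on the compared libraries alone, limma without the trend or with robust moderation, a replicate block, single guides, all 8 sgNeg libraries, the identical column kept, and each library left out in turn.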

Additional observations from a re-analysis of the deposited data

Results flagged for a closer look

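In 1 BRD8 knockout library, the first replicate of guide 2, 3 members stood far from the other libraries of the group. It had 224 FPKM of PSME2, against 194.3 to 194.4 FPKM in the other BRD8 knockout libraries. PSME1 was at 101 FPKM there, against 90.6 to 91.8 FPKM. PSMB8 was at 16.8 FPKM, against 14.8 to 15.0 FPKM. The gap to the nearest library was 0.998 of the group's range for PSME2, 0.877 for PSME1 and 0.872 for PSMB8, each past Dixon's 95% critical value for 4 libraries. The 3 genes come from 11 gene and group pairs examined, of which chance alone marks about 5%. All 3 values remained below both sgNeg1 libraries. Without this library, PSME2, PSME1 and PSMB8 still passed the test.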

How the results depend on the processing

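Counts are of called members. The share of all genes called under each alternative is not given here, so these counts have no background beside them. Against all 8 sgNeg libraries after rescaling, they were 30 for BRD8, 1 for EP400, 1 for ACTL6A, 8 for TRRAP, 1 for DMAP1, 0 for RUVBL1, 8 for RUVBL2 and 2 for H2AZ, and the sign turned for PSME2 (1.89), PSME1 (0.55), PSMB8 (0.20), PSMB9 (0.50) and PSMB10 (0.87) in BRD8, for PSMD1 in ING3 (-0.037) and for PSMB8 in MORF4L1 (-0.062). With the libraries of the comparison alone, they were 3 for EP400, 4 for TIP60, 1 for ACTL6A, 0 for TRRAP, 3 for GAS41, 24 for RUVBL1, 18 for RUVBL2, 1 for TIP60 against EP400 and 1 for TIP60 against TRRAP. With no filter they were 2 for TRRAP, 1 for RUVBL1 and 1 for TIP60 against EP400. Rescaling gave 2 for TRRAP and 5 for TIP60 against EP400, and turned PSMB10 with p53 (0.087). PSMB10 also turned with BRD8 guide 2 alone (0.026), and PSME2 in MEAF6 with the identical column kept (0.218). The cause was not tested.

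The guide or replicate number did not pair knockout libraries with their sgNeg libraries throughout. Correlations of same-numbered libraries ran from -0.47 to 0.72 and were over 0.1 in 12 of 36 pairs of the sgNeg2 section. With the sgNeg2 pair itself they were 0.579 for MRGBP, 0.468 for TIP60 and 0.192 for TRRAP. For the other targets compared they were -0.221 (ACTL6A) to 0.0735 (DMAP1). In the sgNeg3 section the 6 pairs among the 4 knockouts were at 0.317 to 0.716, so these guide libraries deviated together by number, while pairs with sgNeg3 were at -0.081 to -0.023. With a replicate block the counts were 2 for TRRAP, 4 for RUVBL1 (4 higher), 5 for RUVBL2 (4 higher, 1 lower), 15 for BRD8, 10 for TIP60 and 34 for p53, and PSMB8 in TIP60 against EP400 passed (adjusted p = 0.0348).

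Leaving out each library in turn gave 10 to 18 members for BRD8, 5 to 8 for TIP60, 31 to 34 for p53, 0 for RUVBL1, 1 for RUVBL2, 0 to 3 for TRRAP, 0 to 1 for ACTL6A, 0 to 1 for MRGBP, 0 to 5 for H2AZ, 0 to 9 for MORF4L2, 1 to 2 for TIP60 against EP400 and 3 to 5 for TIP60 against TRRAP. Log2 fold changes whose sign turned were PSMB10 in BRD8 (-0.11 to 0.016), and PSMB9 in TIP60 against EP400 (-0.40 to 0.11) and against TRRAP (-0.32 to 0.83). Where an arm kept 1 library, it was assumed to vary like the other groups. Of 168 values of the 38 called results with a library left out, 123 kept direction and call and 45 lost the call. Under the other alternatives 316 of 341 kept both, 22 lost the call and 3 turned sign.

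Depth limits low genes most in the sgNeg4 section, where 1 FPKM stood for 4.2 to 7.3 fragments per kilobase. Intervals for single values were not computed, since fragment counts were not used here.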
